A study of Sus scrofa with 61 samples.

Results

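Troponin is the calcium switch of striated muscle, and 7 of its genes were followed here in the longissimus muscle of pig fetuses near the end of gestation. These are TNNC1, TNNI1 and TNNT1, the slow forms of troponin C, I and T, TNNC2, TNNI2 and TNNT3, the fast forms, and TNNT2, the cardiac form of troponin T. A probe was taken as a member if the array's own gene name, or the symbol in the study's gene lists, was one of these 7. This gave 26 of the 60305 probes on the array and 7 of 9536 named genes, and no probe so named was left out. Probes of these genes without such a name could not be recognised. There were 6 probes of TNNC2, 5 each of TNNT1 and TNNT3, 4 of TNNI1, 3 of TNNI2, 2 of TNNC1 and 1 of TNNT2.

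Total RNA of 61 fetuses was labelled with Cy3, and each fetus had a porcine 1-colour array to itself. Both parents of LW fetuses were Large White and both parents of MS fetuses Meishan, while LWMS came from MS sows by LW boars and MSLW from LW sows by MS boars. Each genotype had 8 fetuses at day 90 of gestation, and at day 110 LW had 9, LWMS 8, MSLW 5 and MS 7. No fetus was treated. The sows were inseminated with mixed semen, so that a litter held purebred and crossbred fetuses of the same sow. The labels do not tie fetuses to sows. Littermates were therefore treated as independent, and the effect of a maternal genotype and of the particular sows that carried it cannot be told apart.

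Troponin sits on the thin filament together with tropomyosin and actin. Troponin C binds calcium, troponin I holds the filament in its inhibited state until calcium arrives, and troponin T anchors the complex to tropomyosin. Slow and fast fibres use different genes for each subunit, TNNC1 and TNNT2 also serve the heart, and cardiac troponin T is a known transient product of immature skeletal muscle. The transcript of fast troponin T is known for its alternative splicing near both ends, including a pair of mutually exclusive exons near the 3′ end of which one is the fetal version. In whole muscle, fewer cells of a type and less RNA per cell cannot be told apart.

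Sequences are printed for the probes on which the results turn, each 60 bases long, 5′ to 3′, as the scanner files give them. The first pair reads fast troponin T and moved in opposite directions, and its capitals mark the 2 runs of 12 bases, 24 in all, that both probes hold. Between those runs the letters differ. The array places A_72_P015556 at base 722 of a pig TNNT3 transcript, whereas it annotates O12914 through a human TNNT3 transcript and gives no start. Which exon each of them reads was not tested.
TNNT3 A_72_P015556: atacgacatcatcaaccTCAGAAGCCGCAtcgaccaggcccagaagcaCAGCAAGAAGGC
TNNT3 O12914: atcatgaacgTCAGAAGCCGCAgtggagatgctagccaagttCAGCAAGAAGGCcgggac

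Another TNNT3 probe, A_72_P538200, starts at base 106 of the same pig transcript. It is shown because it was the TNNT3 probe with the clearest difference between the breeds at day 110. It shares no run of 12 or more bases with the other TNNT3 probes.
TNNT3 A_72_P538200: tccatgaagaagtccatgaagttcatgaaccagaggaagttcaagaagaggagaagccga

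The next pair reads slow and cardiac troponin T. They share a run of 15 bases, set in capitals, and moved in opposite directions all the same. The TNNT2 probe, like O12914, is annotated through a human transcript.
TNNT1 A_72_P232362: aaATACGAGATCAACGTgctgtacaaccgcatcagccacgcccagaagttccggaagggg
TNNT2 O12845: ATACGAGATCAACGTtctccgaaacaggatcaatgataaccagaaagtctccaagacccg

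The last sequence marks a caveat on fast troponin C. In TNNC2 A_72_P070111 the 16 capitals are the reverse complement of bases in another TNNC2 probe, A_72_P611718, so this probe lies on the opposite strand to the others. Its values are described apart from theirs, but it is counted among the 26 probes and among those called.
TNNC2 A_72_P070111: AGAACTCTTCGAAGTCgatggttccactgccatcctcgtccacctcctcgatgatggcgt

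Troponin probes were among the brightest on these arrays. All 26 were well above background on all 61 arrays and none was saturated, and 11 lay in the brightest 1% of the 42436 probes kept for testing (424 probes). Quantile normalization gives the same rank the same value on every array, so a probe at the very top can move only by changing its rank, and TNNC2 A_72_P656346 stayed between rank 3 and rank 37 throughout. Age changes are therefore also given after scaling each array to its 75th percentile, less the median change of all kept probes under that scaling (0.09 log2 for the mean of the genotypes). That scaling has its own reading among bright probes. The 424 brightest probes had a median age change of -0.05 log2 after quantile normalization and of 0.46 after 75th percentile scaling (0.37 beyond the median of all kept probes), under which 393 of them were called higher and 8 lower. The skeletal muscle markers CKM, DES, ACTA1, MYLPF, MB and PYGM were all kept, whereas of 6 heart markers NPPB and GATA4 were not detected well enough to be kept and MYH6 was not on the array. The arrays lay on 8 slides of 6 to 8 arrays, every slide held both days, and 34346 to 45683 probes per array were well above background.

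From day 90 to day 110 the troponins parted. Cardiac TNNT2 and the O12914 probe of fast TNNT3 fell in all 4 genotypes, slow TNNT1 and fast TNNI2 rose by every probe, and the brightest probes of TNNC1, TNNI1 and TNNC2 did not pass the test after quantile normalization. Of the 26 probes, 14 were higher and 4 lower at day 110 (limma, adjusted p under 1%, mean of the 4 genotypes). Over all kept probes the share called in either direction was 72.3% (37.3% higher and 35.0% lower), so the number of troponin probes called is not above that of the array. Their median change was 0.30 log2, against 0.04 for all kept probes. Under 75th percentile scaling 23 were higher and 2 lower, against 40.2% and 31.5% of all kept probes, with a median change of 0.56 beyond that of all probes. The probes of a gene are not all separate readings. TNNI2 A_72_P303159 and A_72_P585911 share a run of 50 bases and TNNC2 A_72_P656346 and O8709 one of 46, and TNNT1 and TNNI1 each have a pair of identical probes.

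**Figure D1:**
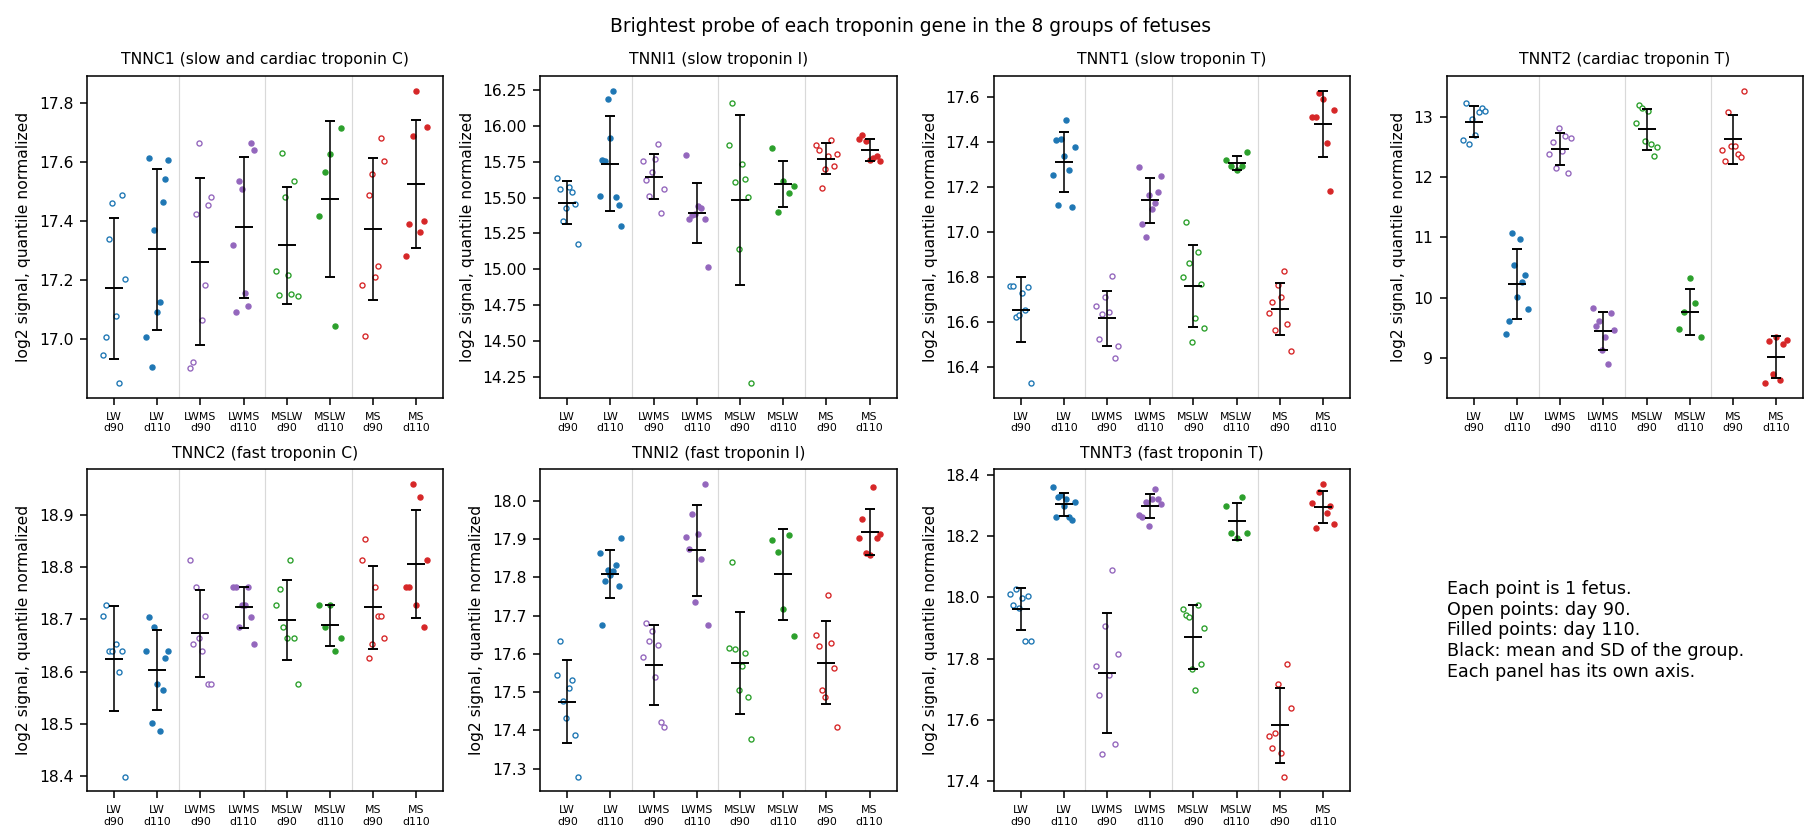
Quantile-normalized log2 signal (vertical axes, each panel with its own range) of the brightest probe of each troponin gene in the 8 groups of fetuses (horizontal axes). Each point is 1 fetus, open at day 90 and filled at day 110, with the group mean and SD in black. TNNT2 lies between 12.07 and 13.44 in all groups at day 90 and between 8.57 and 11.07 at day 110.

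TNNT2, cardiac troponin T, had the furthest change of the 26 probes in the mean of the genotypes, though in LWMS the TNNT3 probe O12914 changed further (-3.21 against -3.03). At day 90 the lowest, median and highest log2 values were 12.55, 13.03 and 13.23 in LW, 12.28, 12.48 and 13.44 in MS, 12.07, 12.51 and 12.81 in LWMS, and 12.35, 12.75 and 13.20 in MSLW. At day 110 they were 9.39, 10.26 and 11.07 in LW, 8.57, 9.22 and 9.34 in MS and 8.90, 9.50 and 9.83 in LWMS, and the 5 MSLW fetuses had 9.35, 9.48, 9.76, 9.91 and 10.32. No fetus of day 110 reached any fetus of day 90, in any genotype.

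The change of TNNT2 was -2.70 ± 0.18 for LW, -3.62 ± 0.19 for MS, -3.03 ± 0.19 for LWMS and -3.03 ± 0.21 for MSLW (log2 ± SE, adjusted p from 9.48e-24 to 2.70e-18, limma). The mean over genotypes was -3.09 ± 0.10 (adjusted p = 1.36e-35) and -3.08 beyond the median under 75th percentile scaling. Within slides it was lower on 8 of 8, by -3.42 to -2.55. A single probe carries this gene, and it was in the array under a human transcript's name, so the fall has no second probe behind it.

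Heart markers did not move as one with TNNT2. MYL7, the atrial regulatory light chain, fell by 2.90 ± 0.19 (adjusted p = 3.20e-20), whereas NPPA, the atrial natriuretic peptide, rose by 0.63 ± 0.09 (adjusted p = 2.96e-09). TNNI3, cardiac troponin I and the neighbour of TNNT1 in the gene order of the pig assembly Sscrofa11.1, was higher at day 110 by 9 of 9 probes, between 0.49 and 0.70. The summed signal of the 3 heart markers kept ran from 11667 to 50491 over the fetuses of day 90 and from 3196 to 17814 over those of day 110.

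All 5 fibroblast markers fell, with a median of -1.44 log2, and their sum ran from 299790 to 390571 at day 90 and from 75167 to 188648 at day 110. Of 4 endothelial markers 3 fell and 1 rose (median -1.08), and their sum was 22166 to 33299 at day 90 and 13572 to 19880 at day 110. Of 4 adipocyte markers 3 fell (median -0.53). Smooth muscle markers rose in 2 of 4 (median 0.43), and nerve and Schwann cell markers in 2 of 4 (0.23). Of 4 markers of myoblasts and dividing cells 2 rose and 1 fell. Of 3 leukocyte markers 1 fell, and of 2 red blood cell markers 1 rose. Of 6 skeletal muscle markers 4 rose and 1 fell (median 0.23). Under 75th percentile scaling all 6 rose, with a median of 0.64 beyond that of all kept probes. The part of any of these cells in the changes of the troponins was not tested. In the gene order of Sscrofa11.1, TNNT2 is separated from slow TNNI1 by LAD1 alone, and TNNI1 did not follow it.

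**Figure D2:**
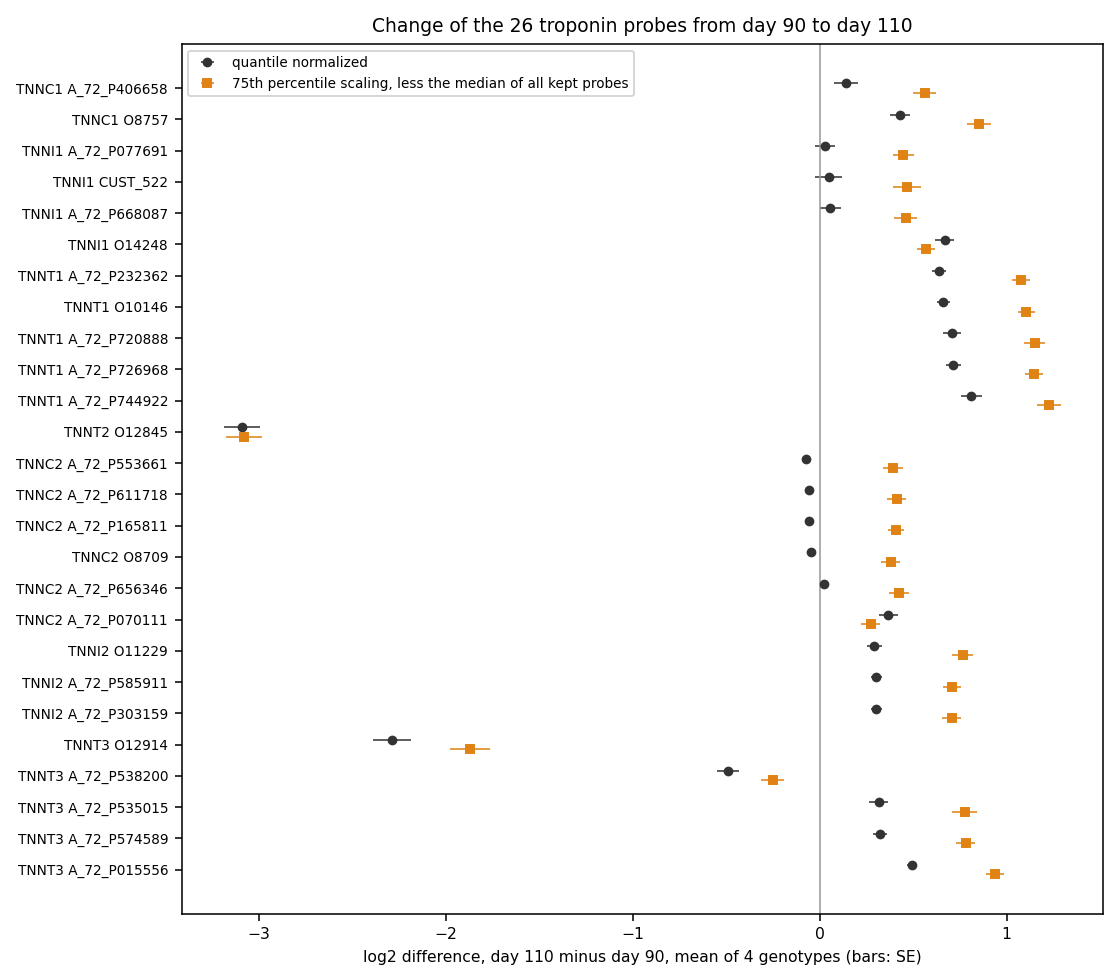
Log2 difference, day 110 minus day 90, mean of the 4 genotypes (horizontal axis), for each of the 26 troponin probes (vertical axis). Black circles are quantile-normalized values and orange squares values scaled to the 75th percentile less the median of all kept probes, both with their SE. TNNT2 at -3.09 and TNNT3 O12914 at -2.29 stand apart on the left, and the TNNT1 probes lie at 0.64 to 0.81 after quantile normalization.

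Slow troponin T rose by all of its probes. TNNT1 A_72_P232362 had lowest, median and highest values of 16.33, 16.69 and 16.76 at day 90 and 17.11, 17.33 and 17.49 at day 110 in LW, and of 16.47, 16.66 and 16.83 against 17.18, 17.51 and 17.61 in MS. In LWMS they were 16.44, 16.64 and 16.80 against 16.98, 17.14 and 17.28, and in MSLW 16.51, 16.78 and 17.04 at day 90, followed by 17.27, 17.29, 17.29, 17.32 and 17.36 in the 5 fetuses of day 110. Both days were apart in every genotype.

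TNNT1 A_72_P232362 rose by 0.65 ± 0.07 for LW, 0.82 ± 0.07 for MS, 0.52 ± 0.07 for LWMS and 0.55 ± 0.08 for MSLW (adjusted p from 3.66e-15 to 3.47e-08, limma). The 5 probes rose by 0.64 to 0.81 in the mean of the genotypes, or by 1.08 to 1.23 beyond the median under 75th percentile scaling. Another probe of identical sequence, O10146, differed from A_72_P232362 by 0.03 ± 0.05 (SD, n = 61), which measures how well the array repeats itself for this gene. On each of 8 slides the probe was higher at day 110.

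Slow troponin I and slow troponin C depended on the scaling. The brightest TNNI1 probe, CUST_522_PI427286967, ranged over the 4 genotypes from 14.21 to 16.16 at day 90 and from 15.02 to 16.24 at day 110, and in each genotype both days overlapped. Its mean change was 0.05 ± 0.07 (adjusted p = 0.543, limma) and lay between -0.25 in LWMS and 0.27 in LW. The 3 bright probes of TNNI1 had changes of 0.03 to 0.06, none past the threshold, but 0.45 to 0.47 beyond the median under 75th percentile scaling, where CUST_522_PI427286967 had an adjusted p of 1.79e-09.

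The dimmest TNNI1 probe, O14248, rose under both scalings, by 0.67 ± 0.05 (adjusted p = 1.31e-18) and by 0.57 beyond the median. CUST_522_PI427286967 and A_72_P077691 hold the same 60 bases and differed by 0.03 ± 0.18 (SD, n = 61). In 1 MSLW fetus of day 90 they lay 1.17 apart, with CUST_522_PI427286967 at 14.21, the lowest value of that probe in all fetuses. The array of this fetus, replicate 8, had 537 non-uniform spots, against a median of 16 over the arrays. The spots of both probes were not marked, so the value was kept. In MSLW the age change was 0.11 by CUST_522_PI427286967 and -0.03 by A_72_P077691.

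TNNC1 A_72_P406658 ran from 16.85 to 17.68 at day 90 and from 16.91 to 17.84 at day 110, with overlap in every genotype. Its change was 0.14 ± 0.06 (adjusted p = 0.0420, limma), and 0.13 ± 0.04 with the slide as a block (adjusted p = 0.00261). Much of its spread lay between slides. Relative to the group means, the slide means ran from -0.24 to 0.24, the 4 slides numbered 3, 4, 7 and 8 lying 0.16 to 0.24 above and slides 1, 2, 5 and 6 lying 0.16 to 0.24 below. The other TNNC1 probe, O8757, whose slide means spanned 0.20, rose by 0.43 ± 0.05 (adjusted p = 2.66e-10), and by 0.85 beyond the median under 75th percentile scaling.

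Fast troponin I rose by all of its probes, and fast troponin C did so only under one scaling. TNNI2 A_72_P303159 had lowest, median and highest values of 17.28, 17.49 and 17.63 at day 90 and 17.68, 17.82 and 17.90 at day 110 in LW, and of 17.41, 17.59 and 17.75 against 17.86, 17.90 and 18.03 in MS. In LWMS they were 17.41, 17.61 and 17.68 against 17.68, 17.89 and 18.04. The days were apart in LW and MS, overlapped at their edges in LWMS and overlapped further in MSLW, where day 90 ran from 17.38 to 17.84 and the 5 fetuses of day 110 had 17.65, 17.72, 17.87, 17.90 and 17.91.

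TNNI2 A_72_P303159 rose by 0.33 ± 0.06 for LW, 0.34 ± 0.06 for MS, 0.30 ± 0.06 for LWMS and 0.23 ± 0.06 for MSLW. In MSLW the adjusted p of 0.00194 rose above 1% without replicate 1 (0.0101) or replicate 4 (0.0108). The 3 TNNI2 probes rose by 0.29 to 0.30 in the mean of the genotypes (adjusted p from 4.06e-14 to 1.30e-09) and by 0.71 to 0.76 beyond the median under 75th percentile scaling.

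The 5 bright TNNC2 probes had changes between -0.07 and 0.02 after quantile normalization and between 0.38 and 0.42 beyond the median under 75th percentile scaling, so that the sign of 4 of them depended on the scaling. A_72_P656346, the brightest, ran from 18.40 to 18.85 at day 90 and from 18.49 to 18.96 at day 110, a change of 0.02 ± 0.02 (adjusted p = 0.345). A_72_P553661 fell by 0.07 ± 0.02 (adjusted p = 0.00266) but lost its call with the median signal (-0.033, adjusted p = 0.206), the deposited values (adjusted p = 0.205) and normexp (adjusted p = 0.145), and had a change of 0.49 ± 0.05 before subtraction of the median under 75th percentile scaling. The reverse-strand probe A_72_P070111, at a far lower signal rank, rose by 0.37 ± 0.05 (adjusted p = 4.07e-09), by 0.27 beyond the median under the other scaling.

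TNNT3, fast troponin T, gave opposite answers by probe. The 3 probes that start at bases 202, 240 and 722 of the pig transcript rose, by 0.32, 0.31 and 0.49 in the mean of the genotypes. The probe at base 106 and O12914 fell, by 0.49 and 2.29. The plot of the TNNT3 probes shows every fetus.

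**Figure D3:**
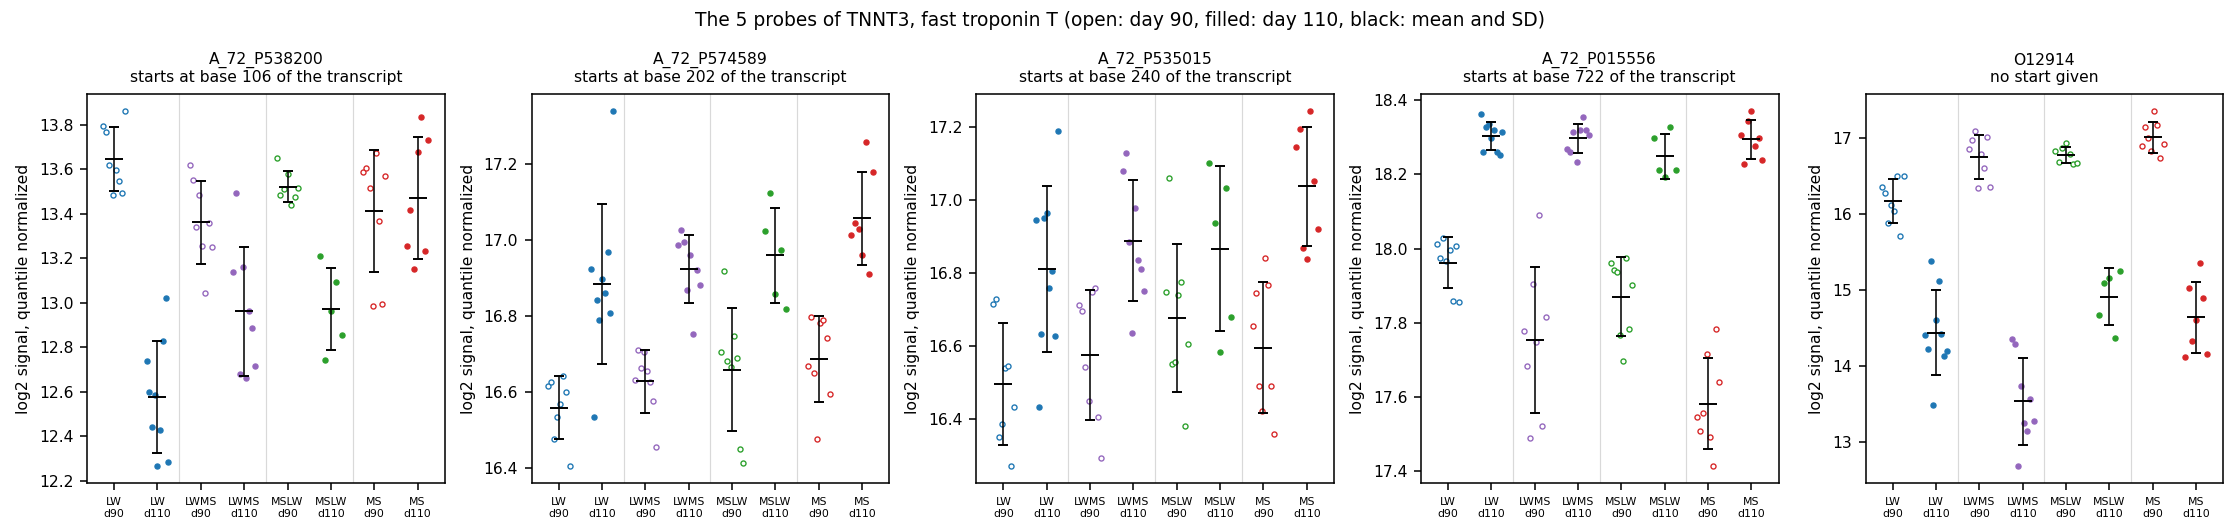
Quantile-normalized log2 signal (vertical axes, own range per panel) of the 5 probes of TNNT3 in the 8 groups of fetuses (horizontal axes), in the order of their start in the transcript, with O12914, which has no start in the files, at the right. Points are fetuses, open at day 90 and filled at day 110, and black marks are the mean and SD. A_72_P015556 lies above 18.19 in every fetus of day 110, whereas O12914 lies below 15.39 in all of them.

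At day 90, TNNT3 A_72_P015556 had lowest, median and highest values of 17.86, 17.99 and 18.03 in LW, 17.42, 17.55 and 17.78 in MS, 17.49, 17.76 and 18.09 in LWMS, and 17.70, 17.92 and 17.98 in MSLW. At day 110 it had 18.25, 18.31 and 18.36 in LW, 18.23, 18.30 and 18.37 in MS and 18.23, 18.31 and 18.35 in LWMS, and 18.19, 18.21, 18.21, 18.30 and 18.33 in the MSLW fetuses. The genotypes were spread out at day 90 and lay close together at day 110, and no day 110 value reached down to day 90. Near the top of the range quantile normalization leaves little room, as this probe moved between ranks 41 and 277.

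The rise of A_72_P015556 came to 0.34 ± 0.05 for LW, 0.71 ± 0.06 for MS, 0.54 ± 0.06 for LWMS and 0.38 ± 0.06 for MSLW (adjusted p from 1.73e-16 to 8.58e-07, limma). The mean was 0.49 ± 0.03 (adjusted p = 5.76e-23), or 0.94 beyond the median under 75th percentile scaling. It was higher on 8 of 8 slides.

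O12914 had at day 90 lowest, median and highest values of 15.71, 16.20 and 16.50 in LW, 16.74, 16.96 and 17.34 in MS, 16.34, 16.81 and 17.08 in LWMS, and 16.66, 16.78 and 16.93 in 7 MSLW fetuses. At day 110 they were 13.49, 14.41 and 15.38 in LW, 14.12, 14.61 and 15.35 in MS and 12.69, 13.42 and 14.35 in LWMS, and 14.37, 14.67, 15.09, 15.16 and 15.25 in MSLW. Again no fetus of day 110 overlapped with day 90.

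O12914 changed by -1.73 ± 0.19 for LW, -2.36 ± 0.20 for MS, -3.21 ± 0.19 for LWMS and -1.86 ± 0.23 for MSLW (adjusted p from 4.29e-21 to 5.04e-10, limma). The mean was -2.29 ± 0.10 (adjusted p = 4.78e-28), and -1.87 beyond the median under 75th percentile scaling. On slides it ran from -2.66 to -1.81, lower on 8 of 8.

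Within 1 array, O12914 minus A_72_P015556 had means of -1.79 at day 90 and -3.86 at day 110 for LW, -0.58 and -3.65 for MS, -1.01 and -4.76 for LWMS, and -1.09 and -3.34 for MSLW, with no overlap between days. This difference was chosen after the values of both probes had been seen. It shows unequal change of 2 probes of 1 gene and no level of either.

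A_72_P538200, the probe nearest to the 5′ end, changed by -1.07 ± 0.11 in LW (adjusted p = 1.82e-12), -0.40 ± 0.11 in LWMS (0.00180) and -0.55 ± 0.13 in MSLW (0.000352). Under 75th percentile scaling the calls in both crosses ended (-0.10 with an adjusted p of 0.490 for LWMS and -0.23 with 0.159 for MSLW, before subtraction of the median), as they did with non-uniform spots kept (adjusted p = 0.0260 and 0.140). In MS its change was 0.06 ± 0.12 (adjusted p = 0.666). This probe, TNNC1 O8757 and TNNC2 A_72_P656346, like O12914, lacked a value in 1 MSLW fetus of day 90, and TNNI1 O14248 in 1 LW fetus of day 90. The mean of -0.49 ± 0.06 (adjusted p = 8.55e-11) was -0.16 under 75th percentile scaling, where it missed the threshold (adjusted p = 0.0183), and -0.25 beyond the median.

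Of these changes across age, 11 of 26 probes in LW (against 23.3% of all kept probes), 15 in MS (37.9%), 11 in LWMS (30.4%) and 8 in MSLW (28.0%) did not overlap between days. By the test, LW had 16 of 26 called (45.3% of all kept probes), MS 17 (56.7%), LWMS 17 (50.9%) and MSLW 14 (44.6%). Only TNNT1 A_72_P726968 and O10146, TNNT2 O12845, TNNT3 A_72_P015556 and TNNT3 O12914 were apart over all fetuses of both days, 5 of 26, against 10.1% of all probes.

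Slow and fast partners were also set against each other on the same array, as differences of quantile-normalized values. A shift of the whole array cancels in them, but the limit that this normalization sets on the brightest probes does not. These differences therefore still depend on the scaling. TNNT2 minus TNNT3 A_72_P015556 changed by -3.04 (LW), -4.33 (MS), -3.57 (LWMS) and -3.41 (MSLW), with no overlap between days. TNNI1 minus TNNI2 changed by -0.06, -0.28, -0.55 and -0.12 in the same order. In MS the days were apart by a narrow gap, with -1.96 to -1.61 at day 90 and -2.26 to -1.97 at day 110. They overlapped in LW and MSLW, and narrowly in LWMS, where day 90 reached down to -2.12 and day 110 up to -2.11. In MSLW day 90 held 1 fetus at -3.17, whose array had 537 non-uniform spots, and the medians were -1.98 at day 90 and -2.10 at day 110. TNNT1 minus TNNT3 changed by 0.31, 0.11, -0.02 and 0.17, and TNNC1 minus TNNC2 by 0.15, 0.07, 0.07 and 0.14, and both overlapped between days in each genotype. Of these 4 pairs, the one with the cardiac gene had the furthest change in every genotype.

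**Figure D4:**
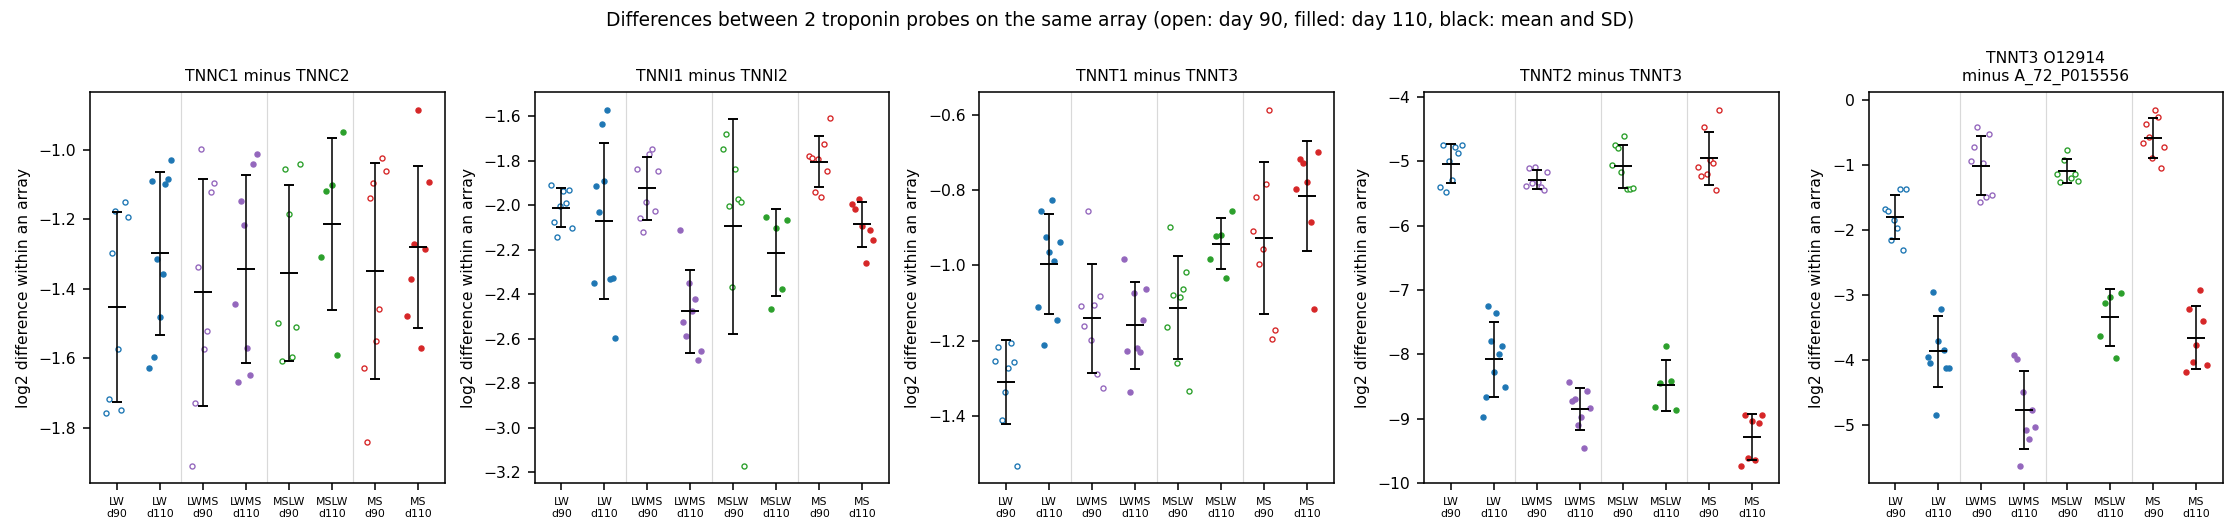
Difference of log2 signal between a pair of troponin probes on the same array (vertical axes, own range per panel) in the 8 groups of fetuses (horizontal axes), with the brightest probe of each gene in the first 4 panels and a pair of TNNT3 probes in the last. Points are fetuses, open at day 90 and filled at day 110, and black marks are the mean and SD. Panels 4 and 5 drop between days, from means of -5.28 to -4.95 to means of -9.29 to -8.08 for TNNT2 minus TNNT3.

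Between the purebreds at day 90, both called probes were TNNT3. MS fetuses had more O12914 signal and less A_72_P015556 signal than LW fetuses, and the values above show no overlap for either. The differences, MS minus LW, were 0.83 ± 0.19 for O12914 (adjusted p = 0.000999) and -0.38 ± 0.06 for A_72_P015556 (adjusted p = 3.44e-07, limma). Under 75th percentile scaling they were 0.74 and -0.49 before subtraction of the median, and 0.76 and -0.47 beyond it. MS was higher on 8 of 8 slides for O12914 and lower on 8 of 8 for A_72_P015556. These are 2 of 26 probes, against 12.8% of all kept probes called and 6.75% without overlap.

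At day 110, 4 of 26 probes were called, 3 higher and 1 lower in MS, against 29.0% of all kept probes (13.7% higher and 15.2% lower), and 3 of 26 did not overlap, against 8.27%. TNNT2 was lower in MS, by -1.22 ± 0.19 (adjusted p = 4.96e-07), with 9.39 to 11.07 in LW and 8.57 to 9.34 in MS, and lower on 6 of 6 slides that held both. TNNT3 A_72_P538200 was higher in MS, by 0.89 ± 0.11 (adjusted p = 5.71e-09), with 12.27, 12.59 and 13.02 as the lowest, median and highest value in LW and 13.15, 13.42 and 13.83 in MS, and higher on 6 of 6 slides. TNNT2 and this probe were apart between the breeds.

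TNNI1 O14248, the dim slow troponin I probe, was higher in MS, by 0.55 ± 0.09 (adjusted p = 3.33e-06), with 9.54 as the highest value in LW and 9.65 as the lowest in MS. The brighter TNNI1 probes were not called after quantile normalization. CUST_522_PI427286967 had means of 15.74 in LW and 15.83 in MS. TNNC2 A_72_P656346 was higher by 0.20 ± 0.05 (adjusted p = 0.000384), with 18.49 to 18.71 in LW and 18.69 to 18.96 in MS, an overlap. No other TNNC2 probe was called after quantile normalization, and the lowest difference among the TNNC2 probes was -0.05. O8709, which shares 46 bases with A_72_P656346, had means of 18.50 in LW and 18.61 in MS. Under 75th percentile scaling 22 of the 26 probes were higher in MS at day 110 and 1 lower, against 17.0% and 12.8% of all kept probes, with a median difference of 0.42 beyond that of all probes, while 224 of the 424 brightest probes were higher under the same scaling, with a median of 0.21 beyond that of all probes.

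Fibroblast markers differed between the breeds at this day too. Of 5, 4 were lower in MS, with a median of -0.94, and their summed signal lay between 117466 and 188648 in LW fetuses and between 75167 and 97779 in MS fetuses. Of 4 adipocyte and 4 endothelial markers 1 each was lower in MS (median -0.64 and -0.26). Their sums were also apart, with 12256 to 22771 in LW against 5326 to 10427 in MS for adipocytes and 16394 to 19880 against 13945 to 16007 for endothelium. Of 6 skeletal muscle markers 2 were higher in MS (median 0.10). Under 75th percentile scaling 5 of them were, with a median of 0.38 beyond that of all kept probes. Of 4 smooth muscle markers 1 was higher and 1 lower, and of 4 nerve and Schwann cell markers 1 was higher. The part of any of these cells in the differences of the troponins was not tested.

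**Figure D5:**
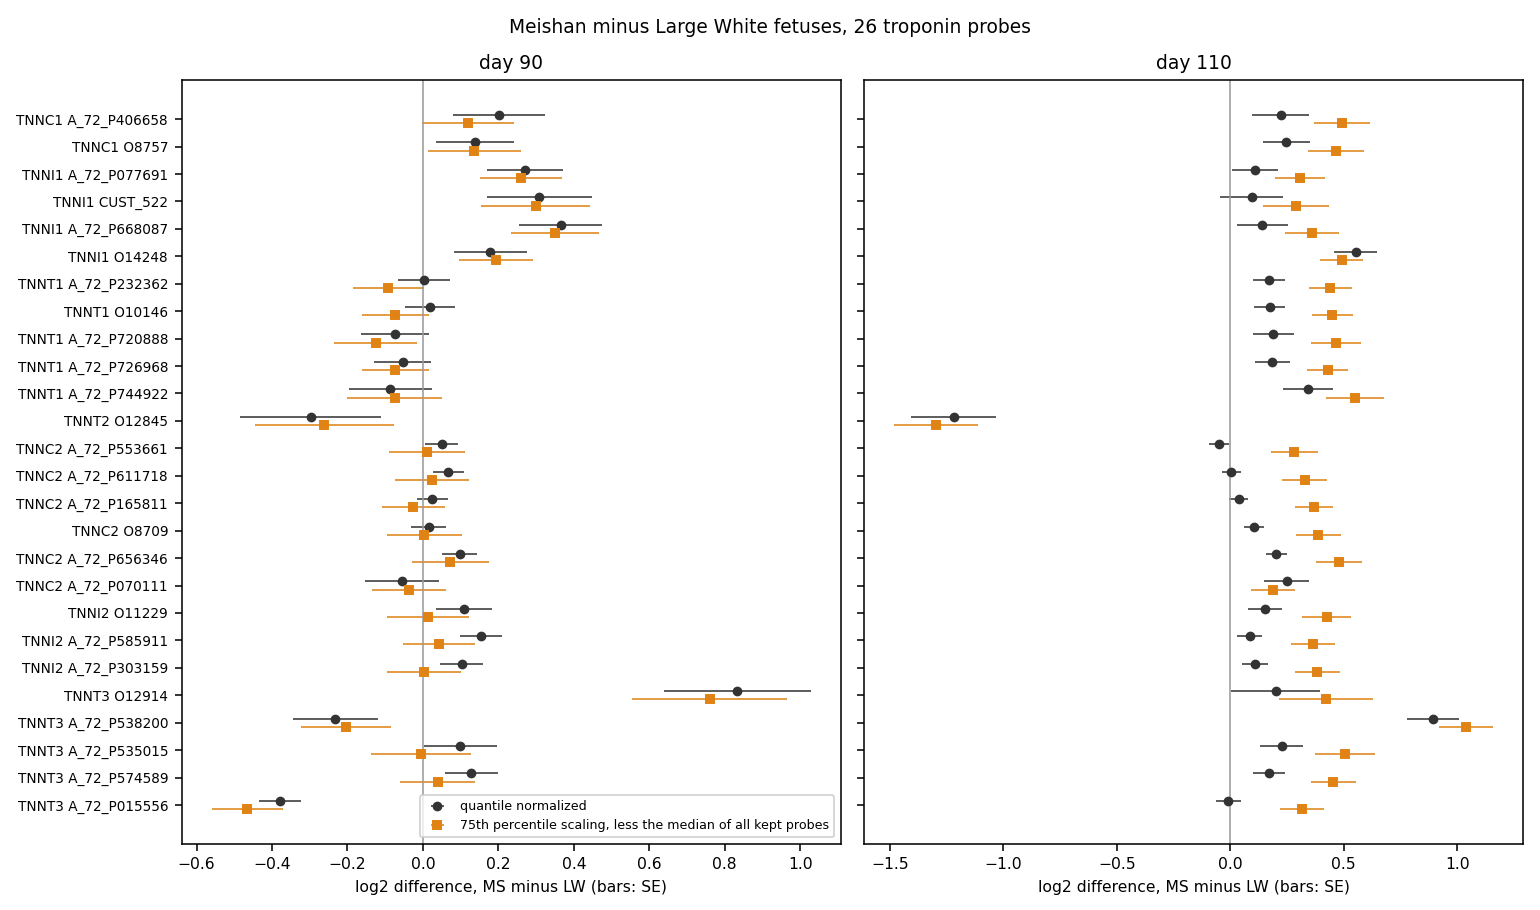
Log2 difference, MS minus LW (horizontal axes), for the 26 troponin probes (vertical axis) at day 90 (left) and day 110 (right). Black circles are quantile-normalized values and orange squares values scaled to the 75th percentile less the median of all kept probes, with their SE. At day 90 TNNT3 A_72_P015556 and O12914 lie on opposite sides of 0, and at day 110 TNNT2 lies at -1.22.

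The age change itself differed between the purebreds for 2 of 26 probes, both of TNNT3, against 5.95% of all kept probes. A_72_P015556 rose by 0.37 ± 0.08 more in MS than in LW (adjusted p = 0.000877), and the change of A_72_P538200 was 1.13 ± 0.16 higher in MS (adjusted p = 2.05e-06). For TNNT2 the difference in change was -0.92 ± 0.27 with an adjusted p of 0.0139, and 0.00872 under 75th percentile scaling. For O12914 it was -0.63 ± 0.28 (adjusted p = 0.117). Under 75th percentile scaling 10 probes were called, 9 higher and 1 lower, against 4.74% and 2.71% of all kept probes. Among the 424 brightest probes, 130 were higher and 3 lower under the same scaling. The 9 held all 5 TNNT1 probes, by 0.59 to 0.71 before subtraction of the median (adjusted p from 0.000566 to 0.00417), so this count rests on the scaling.

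The reciprocal crosses carry the same 2 parental genomes with the roles of sow and boar exchanged. At day 90 none of the 26 probes differed (LWMS minus MSLW, limma, background 0.500%). At day 110 O12914 alone was called, against 0.912% of all kept probes, and it was also the 1 probe without overlap (1.10% of all). LWMS, with an MS sow, lay from 12.69 to 14.35 and MSLW, with an LW sow, from 14.37 to 15.25, a difference of -1.37 ± 0.22 (adjusted p = 4.54e-05). It was lower in LWMS on 5 of 5 slides that held both, by -2.40 to -0.32. The gap between the highest LWMS and the lowest MSLW fetus was small beside the spread of either group.

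In the model of the parental genotypes, age interacted with the maternal genotype for 3 of 26 probes (3.05% of all kept probes), again all of TNNT3. With MS rather than LW as maternal genotype the age change of O12914 differed by -1.05 ± 0.21 (adjusted p = 0.000813), that of A_72_P538200 by 0.64 ± 0.12 (adjusted p = 0.000217) and that of A_72_P015556 by 0.26 ± 0.06 (adjusted p = 0.00211). With non-uniform spots kept, A_72_P538200 lost this call (0.52, adjusted p = 0.0327). No troponin probe passed for the paternal genotype (0.462% of all), A_72_P538200 being nearest at 0.49 ± 0.12 (adjusted p = 0.0165). It passed under 75th percentile scaling (0.60 before subtraction of the median, adjusted p = 0.00421). Of the mid-parent comparisons, crosses against the mean of both purebreds, none called a troponin probe at day 90 (0.0495%) or at day 110 (0.0778%). At an unadjusted p under 0.05, 5 probes passed for the crosses at day 90, 5 for age by paternal genotype, 0 for the mid-parent at day 90 and 10 for the mid-parent at day 110. The share of all kept probes at that unadjusted threshold was not counted, so these numbers cannot be set against the array. An ordinary test without moderation called 0 in each of these comparisons after adjustment.

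Other gene lists were counted by the same age test, in which 37.3% of all kept probes were higher, 35.0% lower and 72.3% called in all. Of 12 tested partner genes of troponin on the thin filament, 8 were higher at day 110 and 2 lower, with a median of 0.48 against 0.04 for all kept probes. TPM3, slow tropomyosin, rose by 1.01 and NEB, the ruler nebulin, by 0.71, whereas TPM4, a tropomyosin of non-muscle and immature cells, fell by 1.87. ACTC1, cardiac actin, had a change of -0.28 after quantile normalization and of 0.14 beyond the median under 75th percentile scaling, so its direction depended on the scaling.

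Of 11 slow-fibre genes, 9 were higher and 1 lower (median 0.60), and of 11 fast-fibre genes 7 were higher and 1 lower (median 0.64). The lower ones, MYBPC1 and MYLPF, had changes of 0.34 and 0.33 beyond the median under 75th percentile scaling, the opposite sign. All 3 embryonic or fetal sarcomere genes tested were lower after quantile normalization, with MYH3, embryonic myosin, at -2.57 and CHRNG, the fetal acetylcholine receptor subunit, at -1.31 beside TNNT2 at -3.09. The third was ACTC1, and under 75th percentile scaling 1 of the 3 genes was higher and 2 were lower. Of 18 tested regulators of the slow and fast programme 6 were higher and 8 lower, a share called near that of all kept probes (72.3%).

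Of 9 splicing regulators known for troponin T exons, 2 were higher and 6 lower, against 37.3% and 35.0% of all kept probes. Under 75th percentile scaling 3 were higher and 5 lower, against 40.2% and 31.5%. CELF2, RBM24, SRSF10 and SRSF6 were among the 9, and their values are not given here. MBNL1 and MBNL2, which favour adult exon choices, rose by 1.23 and 0.65. MBNL3, their relative of immature muscle, fell by 1.39, CELF1 fell by 0.65 and PTBP1 fell by 0.99. These are values of the same fetuses given beside the TNNT3 probes, and their part in the TNNT3 signals was not tested.

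After removal of the effects of group and slide, the brightest probe of each troponin gene was set against other named genes over the fetuses. Only probes with a value on every array served as partners. This is a description of these arrays, which share their scaling. The gene most like TNNI1 CUST_522_PI427286967 was MYL2, the slow regulatory light chain (r = 0.81, n = 61). TNNT1 was most like TPM3 (r = 0.80), followed by MYL6B (0.68) and MYH7 (0.64), and TNNC1 was also most like MYL2 (r = 0.62). TNNI2 was most like the muscle enolase ENO3 (r = 0.74) and TPM2 (0.72). TNNT2 was most like NES, the intermediate filament gene of immature cells (r = 0.66), TNNT3 A_72_P015556 like SSPN (r = 0.65) and TNNC2 like ATP5B (r = 0.58, n = 60). Among the troponins, TNNC1 and TNNI1 had an r of 0.50, TNNC1 and TNNT1 of 0.46, TNNI1 and TNNT2 of 0.44, and TNNT1 and TNNT2 of -0.02. TNNC2 was left out of these pairs, because its brightest probe lacked a value.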

How the data were processed

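RNA of 61 muscle samples was measured on 1-colour arrays. The authors deposited spot intensity values for each array as the scanner software gave them (Agilent Feature Extraction 10.10.1.1, not normalized between arrays) and a table of quantile-normalized log2 values, used as an alternative after matching by position in the scanner file (44368 spots, column medians of 8.09 to 8.10). Here the background-corrected intensity was quantile normalized and log2 transformed. Non-uniform spots were set to missing (5 of 1586 values of the members), spots of a probe were averaged, and probes had to be well above background on 80% or more of the arrays of 1 group.

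The 8 groups were fitted with limma 3.58.1 in R 4.3.3 (moderated two-sided contrasts, Benjamini-Hochberg over 42436 probes, threshold 1%), parental genotypes in a second model. The authors' random sow effect was left out. Members and gene lists were chosen with earlier results of these data known. Named with full values were the brightest probe per gene, the extreme probes of a gene called both ways, and probes called in the crosses, mid-parent or parental tests, and other probes are named where a count needed them. Alternatives changed the signal column, background correction, scaling, filter, slide, moderation and the MSLW fetuses of day 110. In a simulation for MS at day 110, 162 of 200 probes changed by 1 log2 were recovered, with 2 false calls among 42436 probes. Its noise was independent between fetuses and probes, without slides, litters or other group differences. It checks the code and does not give the rate of false calls in the real design. Sequences come from the scanner files, and gene order from RefSeq. Figures were drawn with matplotlib 3.10.9 in Python 3.11.15.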

Additional observations from a re-analysis of the deposited data

Results flagged for a closer look

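In 88 groups tested, 4 values lay far from the rest of their group by Dixon's criterion, where chance gives about 5% of groups. TNNC2 A_72_P070111 was 10.31 in MS replicate 5 at day 110, with the next fetus at 9.94. TNNC2 A_72_P553661 was 18.28 in MSLW replicate 3 at day 90, below 18.52. In LW replicate 8 at day 90 both TNNC2 A_72_P656346 (18.40, next 18.60) and TNNT1 A_72_P232362 (16.33, next 16.62) were low. The array of this fetus had 802 non-uniform spots, the most of all arrays, against a median of 16.

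The change with age differed between groups for 3 probes of TNNT3. Between MS and LW it differed by 0.37 ± 0.08 for A_72_P015556 and by 1.13 ± 0.16 for A_72_P538200. Between maternal genotypes it differed by 0.26 ± 0.06 for A_72_P015556, 0.64 ± 0.12 for A_72_P538200 and -1.05 ± 0.21 for O12914 (limma, adjusted p from 2.05e-06 to 0.00211).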

How the results depend on the processing

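Scaling to the 75th percentile moved 5 counts of troponin probes called, to 26 for age in MS, 25 for age in MSLW, 23 for the breeds at day 110, 10 for the difference in age change between the purebreds and 1 for age by paternal genotype, and it moved TNNT2 minus TNNT3 to -5.00 in MS, -4.06 in LWMS and -3.83 in MSLW. The other 156 counts stayed within 1.5 times the reported count, though age in LW went from 16 to 23, age in LWMS from 17 to 24 and the mean age change from 18 to 25 under this scaling, and 77 within-array changes stayed within 1 SD. TNNC2 A_72_P553661 turned from lower to higher with age under this scaling (0.65 in MS and 0.49 in the mean, before subtraction of the median). TNNC2 A_72_P656346 turned to -0.017 with the median signal, -0.017 with the deposited values and -0.018 with normexp. The cause was not tested. Of single-probe results, 545 kept direction and side of the threshold, 17 lost their call, 4 gained one and 5 reversed. TNNT3 A_72_P538200 lost its call for age in LWMS and MSLW under 75th percentile scaling (-0.10 and -0.23 before subtraction of the median). With non-uniform spots kept it lost both (-0.40 and -0.31) and that for age by maternal genotype (0.52).

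Leaving out 1 of the 5 MSLW fetuses of day 110 gave 12 to 15 probes for age in MSLW, against 18 throughout for the mean age change, 1 for the crosses, 3 for age by maternal genotype and 0 for age by paternal genotype and the mid-parent at day 110. Over all kept probes, the crosses at day 110 went from 387 calls to 238 and age by paternal genotype from 196 to 308 without replicate 3, and age by maternal genotype from 1293 to 2143 with the slide as a block. Mid-parent calls went from 21 to 11, 11, 6 and 4 at day 90 and from 33 to 21, 20, 19 and 9 at day 110 (median signal, deposited values, normexp, all arrays above background). No paired analysis was possible because replicate numbers follow accession order and no label ties fetuses of different groups. Slides hold arrays of different groups and were used as a block and for the within-slide values. The number of arrays limits the precision.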
